A study of Mus musculus with 6 samples.

Results

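Imprinted genes are transcribed mainly or only from the copy inherited from a single parent. The inactive copy is marked by DNA methylation that was laid down in an egg or sperm cell at a control region, and one such region can govern a whole cluster of neighbouring genes. Many of these genes act on growth, and in tumours the marks can be lost or gained. A number of genes on the list are known to be imprinted only in certain organs, such as Ube3a in neurons, and are read from both copies elsewhere. The 48 imprinted genes described here were chosen by gene symbol, as a list of known members of 21 clusters plus Ascl4, which has no cluster here. All 48 were among the 49585 genes of the count tables. By the parental copy known to be active, 27 were listed as paternally expressed and 20 as maternally expressed. No active copy was assigned to Ascl4, which is counted among the imprinted genes only because it is on the list.

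The samples were tumoroids, 3-dimensional cultures in Matrigel of intestinal adenoma cells from C57BL/6 mice, from which polyadenylated RNA was sequenced. The 3 knock-out libraries had the genotype APC min/+, Villin-Cre and IKKa FL/FL, and the 3 wild-type libraries APC min/+, Villin-Cre and IKKa +/+. Both groups thus carried the Min mutation of Apc, which starts intestinal tumours, and Cre under the Villin promoter, which is active in gut epithelium. The floxed gene is Chuk, which encodes the kinase IKKa of the NF-kB pathway. Replicates are described as biological, but neither separate mice nor separate cultures are mentioned, so p-values reflect the variation among these libraries alone, and part of it may be technical. Counts per gene do not separate the maternal from the paternal copy, so none of the values below shows which copy was read.

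Libraries held 26785922 to 31875723 counts in knock-out and 20749747 to 29752507 in wild-type tumoroids. Chuk had 28.9, 24.4 and 34.9 CPM (counts scaled to the library size, with the TMM method) in the knock-out libraries against 101, 106 and 95.8 in the wild type, a log2 fold change of -1.77. Xist had 6 counts in knock-out and 95406 in wild-type tumoroids, and the Y-linked Eif2s3y had 7164 in knock-out and 0 in wild-type tumoroids, so sex-linked expression differed as well, and genotype and sex cannot be told apart. Knock-out replicate 2 stood apart from the other knock-out libraries, with a chi-square of counts per degree of freedom of 36.4 and 37.0 against them and of 5.64 between these. Mitochondrial genes took 2.22%, 3.46% and 2.15% of the counts in the knock-out libraries against 7.42%, 7.58% and 6.18% in the wild type, and the part of this difference in the results below was not tested. The epithelial markers Epcam, Cdh1, Vil1, Krt8, Krt18, Krt19 and Cldn7 summed to 10370 to 12176 CPM in knock-out and 7959 to 8582 CPM in wild-type tumoroids. Krt8, Krt18 and Krt19 rose and Epcam, Vil1 and Cldn7 fell, so the higher sum came from the keratins. The fibroblast markers Col3a1, Lum, Pdgfrb and Thy1 had no count in any library. The list of 9 summed to 9.85 to 12.3 CPM in the knock-out against 20.9 to 30.9 CPM in the wild type, mostly from Fbln1. Col1a1 on this list went the other way, with 59 counts in knock-out and 2 in wild-type tumoroids. Lists of 5 markers each, knock-out against wild type, summed to 0.112 to 0.316 against 9.25 to 18.1 CPM for smooth muscle. In the wild type this was nearly all Acta2, while Myh11, Des, Actg2 and Cnn1 were at or near 0 in both genotypes. The sums were 0.300 to 0.442 against 9.93 to 14.5 CPM for endothelium (mostly Tek). For blood cells (mostly Cd68) they were 12.0 to 12.9 against 1.88 to 6.98 CPM. Itgam on the blood list went the other way, with 8 counts in knock-out and 46 in wild-type tumoroids. The 6 markers of neurons and glia summed to 1.39 to 1.91 against 0.804 to 3.63 CPM. The part of these markers' cells in the results below was not tested.

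Of the 48 imprinted genes, 15 had no count in any of the 6 libraries, 8 had counts below the filter on low values (edgeR's filterByExpr, with a minimum count of 10 and a minimum total of 15) and 25 could be tested. Knock-out tumoroids had no count of Snrpn, hardly any of Ppp1r9a and little Plagl1, genes that the wild type expressed. They expressed Mest, which was all but absent from the wild type. Phlda2, Slc22a18, Impact, H13, Cd81, Trappc9 and Ascl4 rose as well, while Igf2r, Ddc, Commd1, Gnas, H19 and Asb4 fell. Between knock-out and wild type, 57.4% of the 13759 genes tested passed an adjusted p of 0.05 (edgeR quasi-likelihood test, Benjamini-Hochberg over all genes tested), with 30.4% of the genes tested higher and 27.0% lower. Among the 25 tested imprinted genes 17 passed, 8 higher and 9 lower, which is 68.0%. In 5 the rise and in 6 the fall was at least 2-fold, against 15.2% and 9.83% of all genes tested. The values of the genotypes did not overlap in 20 of the 25, against 63.1% of all genes. H19, Asb4, Snrpn and Ppp1r9a came through the filter by their wild-type counts and Mest and Ascl4 by their knock-out counts, so these had to differ, and the shares are given as a description. Without knock-out replicate 2, 20 imprinted genes passed, the same 17 and Copg2, Ube3a and Zrsr1, against 61.6% of all genes.

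**Figure D1:**
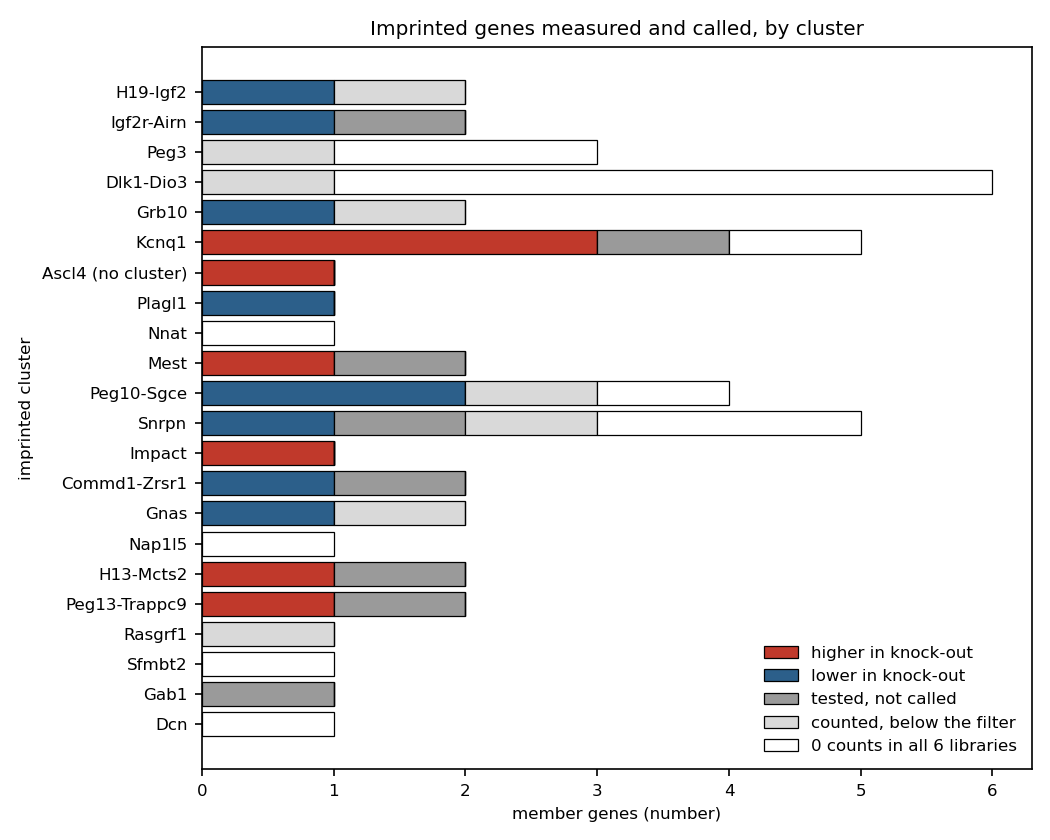
Number of imprinted genes (horizontal axis) in each cluster (vertical axis), divided into genes higher or lower in knock-out than in wild-type tumoroids at an adjusted p of 0.05, tested but not called, counted below the filter, and without a count in all 6 libraries. The Dlk1-Dio3 cluster had counts for 1 of 6 genes, while 4 of the 5 Kcnq1 genes were tested and 3 of these were higher in the knock-out.

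Both parental classes held rises and falls. Of 14 tested maternally expressed genes 5 rose and 6 fell (78.6% called), and of 10 tested paternally expressed genes 2 rose and 3 fell (50.0% called), against 57.4% of all genes tested. The classes were not compared by a test. The median log2 fold change was -0.06 in the maternal class and -0.20 in the paternal class, against 0.002 over all genes tested. The median absolute log2 fold change of the 25 was 0.65, against 0.46 over all genes tested. The medians are the same with H19, Asb4 and Snrpn set to their bounds, which had to be so, since these bounds too lie far from the middle. H19, Asb4, Snrpn, Ppp1r9a, Mest and Ascl4 came through the filter by the counts of a single genotype. The shares and medians are thus given as a description.

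**Figure D2:**
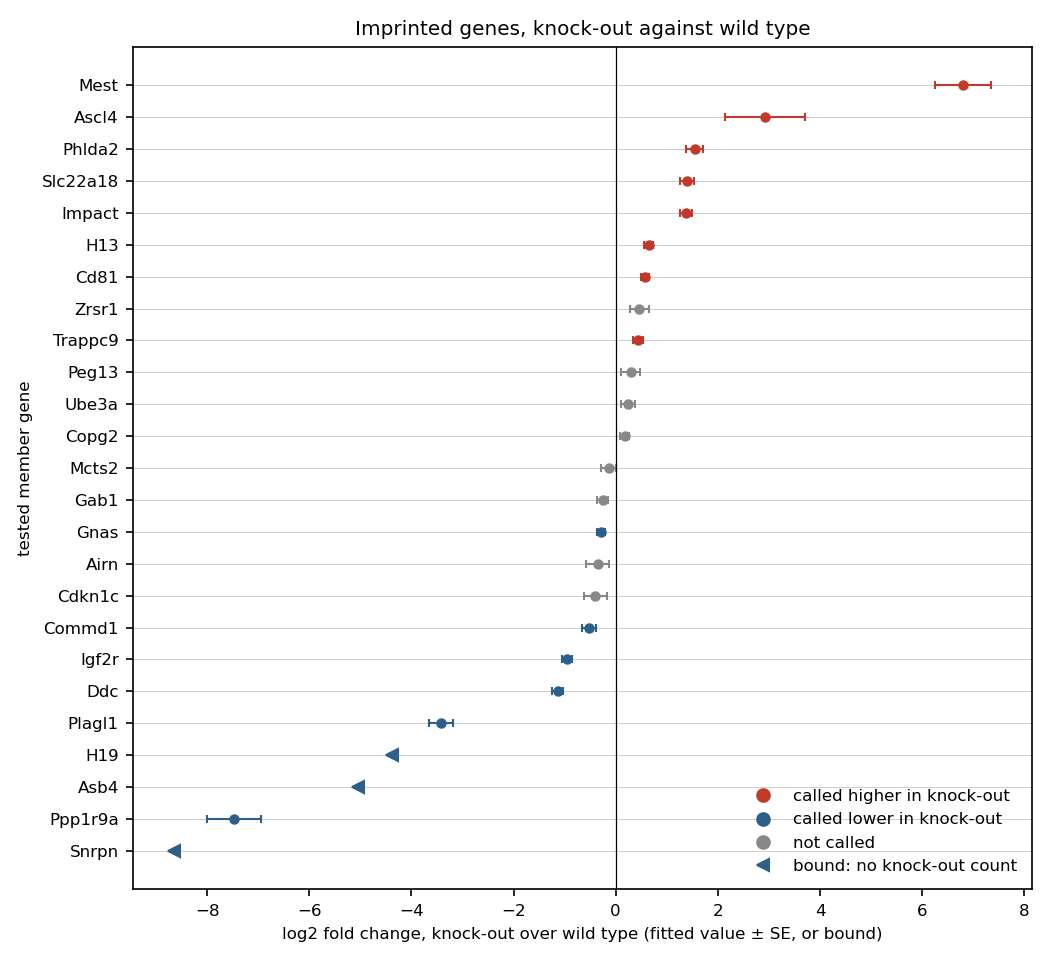
Log2 fold change of each tested imprinted gene, knock-out over wild type, as the fitted value with its standard error (circles with bars) or, for genes without a count in the knock-out, as a bound set at 3 counts over its pooled libraries (triangles). Values ran from 6.80 for Mest to the bound for Snrpn, and 8 genes near the centre did not pass the test.

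Promoter sequences are shown for Mest, Plagl1 and Snrpn, since these paternally expressed genes are among those that differed most and each is known for a control region, methylated in the egg, at a promoter. ZFP57 is a zinc-finger protein that binds the methylated hexamer TGCCGC at such regions. Windows from 250 bases before to 50 bases after a start were taken from RefSeq (GRCm38.p6), and for each gene the window with the most CpG is given 5′ to 3′ on the gene's strand. Capitals mark the hexamer, which in these 3 windows occurs as its reverse complement GCGGCA. The windows are chr6:30737800-30738099 on the plus strand for Mest, chr10:13090582-13090881 on the plus strand for Plagl1 and chr7:60005150-60005449 on the minus strand for Snrpn.
Mest: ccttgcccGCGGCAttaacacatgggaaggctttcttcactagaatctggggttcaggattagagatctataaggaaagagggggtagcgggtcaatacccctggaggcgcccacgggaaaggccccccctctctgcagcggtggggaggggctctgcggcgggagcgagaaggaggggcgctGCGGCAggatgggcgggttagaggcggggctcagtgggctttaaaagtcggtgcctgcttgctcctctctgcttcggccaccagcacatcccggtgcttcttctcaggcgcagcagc
Plagl1: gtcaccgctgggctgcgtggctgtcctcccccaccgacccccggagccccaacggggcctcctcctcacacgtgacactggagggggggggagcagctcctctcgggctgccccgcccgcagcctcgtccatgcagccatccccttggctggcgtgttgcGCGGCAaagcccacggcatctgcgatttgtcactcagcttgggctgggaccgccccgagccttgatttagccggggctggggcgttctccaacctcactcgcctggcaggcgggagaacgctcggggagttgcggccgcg
Snrpn: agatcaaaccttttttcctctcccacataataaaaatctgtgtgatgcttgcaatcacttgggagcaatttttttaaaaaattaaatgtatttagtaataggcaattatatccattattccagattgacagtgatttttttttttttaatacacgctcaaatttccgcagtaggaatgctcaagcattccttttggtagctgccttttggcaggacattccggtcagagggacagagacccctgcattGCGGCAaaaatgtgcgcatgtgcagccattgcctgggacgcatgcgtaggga
The Mest window held 17 CpG and 2 hexamers, that of Plagl1 26 CpG and 1 hexamer, and that of Snrpn 7 CpG and 1 hexamer. The window with the most CpG held 48 CpG in Ppp1r9a and 8 CpG in Asb4, both without the hexamer. Windows were found for 38 of the 48 imprinted genes, 57 windows in all. The hexamer, on either strand, was in 14 of the 57 windows (24.6%), which belong to 13 genes, and in 3813 of all 32851 windows (11.6%). These counts are not all independent, since Snrpn and Snurf share 1 window and 2 of the Mest windows overlap almost wholly. The median was 14 CpG per window in the imprinted genes and 7 over all windows. The hexamer itself holds a CpG, and no windows matched for CpG were compared, so its share cannot be told apart from the CpG content. With the 250 bases before the start alone, 7 of these genes held the hexamer, in 14.0% of their windows against 8.68% of all. A match of letters shows neither methylation nor binding, which were not measured.

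Snrpn, Snhg14 and Gm38393, neighbouring transcripts on chromosome 7, had no count in any knock-out library. Snrpn (ENSMUSG00000102252, GRCm38 chromosome 7, 59982495 to 60140219, minus strand) encodes SmN, a core protein of the splicing machinery. It had 0, 0 and 0 CPM in knock-out replicates 1 to 3 against 15.8, 11.0 and 12.7 CPM in the wild type, or 0 against 1040 counts. Every knock-out library was thus at 0 and every wild-type library above it, with Snrpn at least 400.1-fold lower in the knock-out (edgeR adjusted p = 2.0e-07). At 3 counts over the pooled knock-out libraries the floor was 0.0336 CPM. Snhg14, the long RNA that runs on from Snrpn and is the host of small nucleolar RNAs, had no count in the knock-out against 7.04, 4.70 and 4.76 CPM in the wild type, at least 167-fold lower (adjusted p = 4.1e-06). Gm38393, which shares 589 exon bases with Snrpn, had 0 counts in knock-out and 256 in wild-type tumoroids, at least 98.5-fold lower (adjusted p = 8.5e-05). Snhg14 and Gm38393 are not on the list of 48 and were singled out after their values were seen. Snurf, the reading frame upstream of SmN on the same transcript, was at 0 in all libraries, but all of its 216 exon bases lie within Snrpn and Gm38393, so its level cannot be told apart from theirs.

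Other genes of the Snrpn domain differed in direction. Ube3a, a ubiquitin ligase that is opposed by the antisense end of Snhg14 in neurons, had 119 ± 23.6 CPM in knock-out and 101 ± 15.2 in wild-type tumoroids (SD, n = 3 each), with a log2 fold change of 0.24 ± 0.14 (SE) and an adjusted p of 0.17. Its 3 knock-out values, 136, 92.3 and 129.6, overlapped the wild-type values of 110.1, 109 and 83.3. Without knock-out replicate 2 it passed the test, at an adjusted p of 0.0033. Ube3a shares 1803 exon bases on the opposite strand with Snhg14, and the strand setting of the counting is not given in the sources used here. Ndn, a growth suppressor of the MAGE family, had 3 counts in knock-out replicate 1 and none elsewhere, and its relative Magel2 had none at all. Of genes in the same interval off the list of 48, Atp10a, a phospholipid flippase, rose to 19.4, 15.1 and 22.5 CPM in the knock-out against 0.101, 0 and 0 in the wild type (log2 fold change 8.79 ± 0.48, adjusted p = 1.8e-09). Mkrn3, a zinc-finger gene at the other end, fell to 0.204 ± 0.121 CPM in the knock-out against 0.696 ± 0.246 in the wild type (adjusted p = 0.025). From Atp10a to Mkrn3, chromosome 7, 58656166 to 62420139, 19 of 277 genes had counts and 8 were tested. Of these 1 rose and 4 fell, beside 57.4% of all tested genes called in either direction. Snrpn, Snhg14, Gm38393 and Mkrn3 came through the filter by their wild-type counts and Atp10a by its knock-out counts, so these had to differ. Gm38393 also shares exon bases with Snrpn, and the interval was chosen after values were seen, so the numbers are given as a description.

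Ppp1r9a and Asb4, maternally expressed genes of the Peg10-Sgce cluster on chromosome 6, both fell in the knock-out, to no or hardly any counts. Ppp1r9a (ENSMUSG00000032827, 4902917 to 5165661, plus strand) encodes neurabin, a scaffold that ties protein phosphatase 1 to actin. It had 0, 0 and 0.258 CPM in the knock-out against 20.7, 18.0 and 11.6 CPM in the wild type, or 8 against 1302 counts. All 8 knock-out counts came from replicate 3, and no knock-out value came near the wild-type values. The ratio of the counts was 188, with an exact 95% counting interval of 95.04 to 436, and the fitted log2 fold change -7.48 ± 0.53 (adjusted p = 1.8e-08). Without knock-out replicate 1 the fitted difference was 117-fold, and without replicate 3 it was at least 327-fold. Asb4 (5383386 to 5433022, plus strand), a subunit of a ubiquitin ligase of the SOCS-box family, had 0, 0 and 0 CPM in the knock-out against 1.24, 0.485 and 1.45 CPM in the wild type. It was at least 33.1-fold lower (adjusted p = 6.8e-04), and its genotypes did not overlap.

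The paternally expressed genes of the same cluster were hardly seen in either genotype. Peg10, a gene derived from a retrotransposon, had 5 counts in knock-out replicate 1 and 2 in wild-type replicate 1, and Sgce, which encodes epsilon-sarcoglycan, had none. Between them and Asb4 lie the lactonase genes Pon2 and Pon3. Pon2 fell to 88.8 ± 2.25 CPM in the knock-out against 234 ± 7.50 in the wild type (log2 fold change -1.40 ± 0.07, adjusted p = 7.8e-09), and Pon3 to 25.0 ± 6.16 in the knock-out against 33.6 ± 3.76 in the wild type (adjusted p = 0.049). Casd1, at the other edge, had 19.5 ± 1.11 CPM in knock-out and 17.0 ± 1.68 in wild-type tumoroids (adjusted p = 0.21). From Casd1 to Asb4, 6 genes were tested and 4 fell, beside 27.0% of all tested genes lower. Of these falls, Ppp1r9a and Asb4 came through the filter by their wild-type counts, so they had to differ, and Pon3 passed only narrowly. The numbers are given as a description. The interval was chosen after values were seen.

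Mest had the largest rise among the 48 genes. It encodes an enzyme-like protein of the alpha/beta-hydrolase fold and marks mesoderm in the embryo (ENSMUSG00000051855, chromosome 6, 30723547 to 30748465, plus strand). It had 11.3, 6.97 and 8.88 CPM in the knock-out against 0.201, 0 and 0 CPM in the wild type, or 819 against 6 counts. All 6 wild-type counts came from replicate 1, and the genotypes did not overlap. The ratio of the counts was 118, with an exact 95% counting interval of 54.1 to 323, and the log2 fold change 6.80 ± 0.55 (adjusted p = 5.1e-08). Without wild-type replicate 1 the rise was at least 145-fold, and without replicate 3 it was 74.1-fold, against 111-fold in the fit of all libraries. Mir335, a microRNA gene inside Mest, had no count in these libraries of polyadenylated RNA.

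The tail of Mest overlaps Copg2, a coat protein gene of Golgi vesicles on the opposite strand, over 912 exon bases, which is 23.1% of the exons of Mest. Copg2 had 91.1 ± 6.79 CPM in knock-out and 80.4 ± 7.40 in wild-type tumoroids, with a log2 fold change of 0.18 ± 0.09 and an adjusted p of 0.13. The wild type thus held 6293 Copg2 counts beside 6 Mest counts. In these bulk cultures, a smaller share of cells that express a gene and less RNA per cell cannot be told apart, for Mest and for the genes below alike.

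Plagl1, a zinc-finger transcription factor that halts the cell cycle and induces cell death, had the largest fall among those of the 48 genes with counts in every library. It lies at chromosome 10, 13060504 to 13131694, plus strand (ENSMUSG00000019817), and is the only gene of its cluster on the list. It had 3.51, 1.91 and 2.36 CPM in the knock-out against 32.6, 29.9 and 21.5 CPM in the wild type. All knock-out values were well below all wild-type values, with a log2 fold change of -3.41 ± 0.23 (10.7-fold lower, adjusted p = 1.0e-07).

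**Figure D3:**
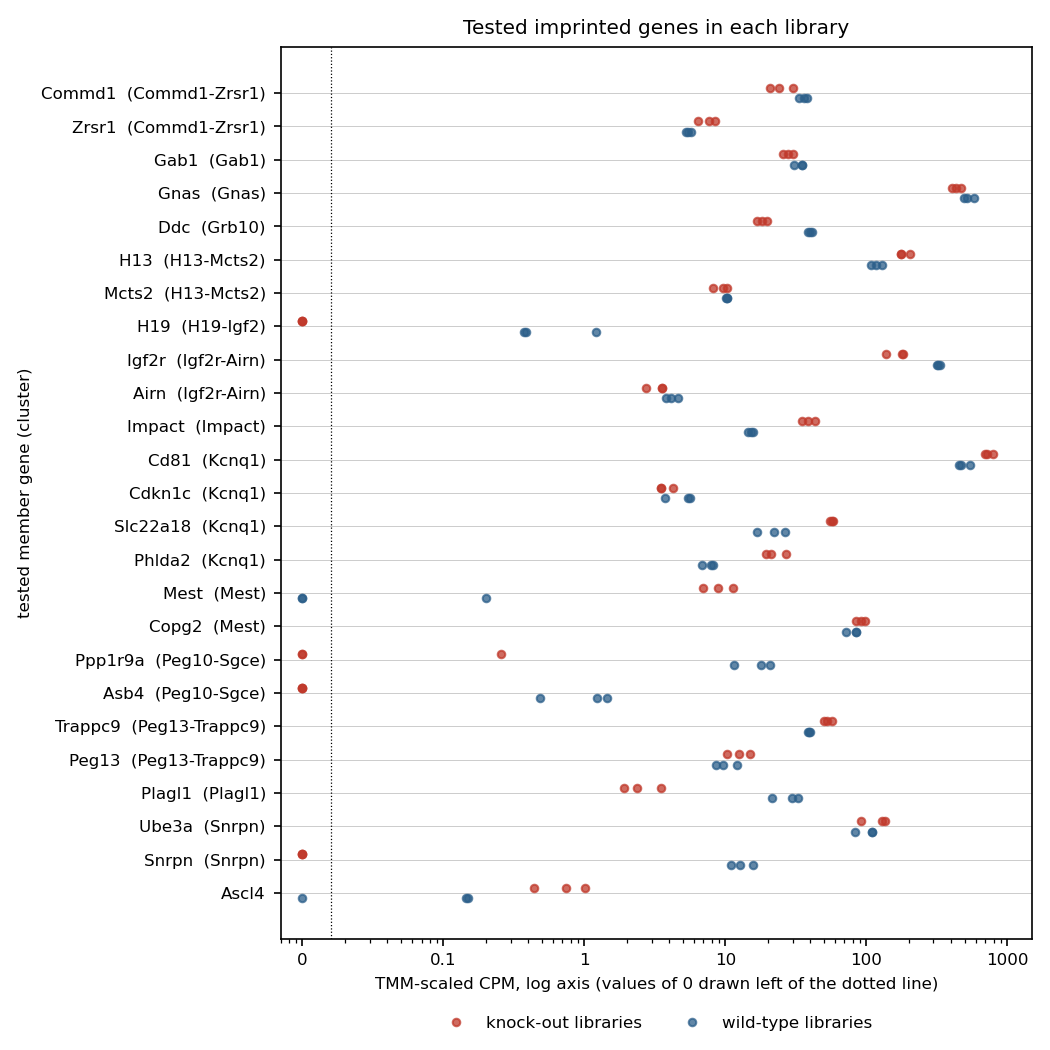
Level of each tested imprinted gene in each of the 3 knock-out libraries (red, upper row of points) and 3 wild-type libraries (blue, lower row), as TMM-scaled CPM on a log axis, with values of 0 drawn left of the dotted line. Snrpn, Asb4 and H19 had only zeros in the knock-out, Ppp1r9a had 2 zeros there, and Mest had 2 zeros in the wild type.

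Phlda2, Slc22a18 and Cd81 on distal chromosome 7, in the cluster controlled from within Kcnq1, all rose. Phlda2 (ENSMUSG00000010760, 143501545 to 143503150, minus strand), a small protein that restrains growth of the placenta, had 21.2, 27.0 and 19.5 CPM in the knock-out against 7.87, 6.83 and 8.25 in the wild type (log2 fold change 1.55 ± 0.16, adjusted p = 6.2e-06). Slc22a18 (ENSMUSG00000000154, 143473736 to 143499334, plus strand), a membrane transporter gene next to it, had 55.3, 58.5 and 57.6 CPM in the knock-out against 16.7, 26.5 and 22.3 in the wild type (1.40 ± 0.14, adjusted p = 3.1e-06). The genotypes did not overlap in either gene. Cd81, a tetraspanin of the cell surface imprinted in the placenta, rose less, to 734 ± 50.4 CPM in the knock-out against 493 ± 47.0 in the wild type (0.57 ± 0.09, adjusted p = 1.1e-04). Cdkn1c, the p57 inhibitor of the cell cycle, had 3.51, 4.23 and 3.49 CPM in knock-out and 5.43, 5.62 and 3.75 in wild-type tumoroids. These ranges overlapped, and the log2 fold change of -0.40 ± 0.23 did not pass (adjusted p = 0.17). Kcnq1ot1, the long RNA that silences the cluster on the paternal copy, had no count in any library, although its host gene Kcnq1, a potassium channel gene, had 247 ± 14.9 CPM in knock-out and 318 ± 19.9 in wild-type tumoroids (-0.37 ± 0.08, adjusted p = 0.0014).

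Further along the same chromosome stood a run of rises off the list of 48. Tnfrsf23, a decoy receptor for the death ligand TRAIL, had 142, 100.04 and 149 CPM in the knock-out against 2.78, 1.94 and 2.45 CPM in the wild type (log2 fold change 5.74 ± 0.20, adjusted p = 2.9e-10). Its relatives Tnfrsf22, at 63.7 ± 12.4 CPM in the knock-out against 5.99 ± 1.13 in the wild type, and Tnfrsf26, at 1.63 ± 0.245 in the knock-out against 0.300 ± 0.134 in the wild type, rose 3.44 ± 0.18 and 2.51 ± 0.47 on the log2 scale (adjusted p = 1.0e-08 and 5.5e-04). Tnfrsf22 and Tnfrsf26 were singled out after their values were seen, and these 3 related genes lie side by side, so reads shared between copies make each single value less certain. Osbpl5, an oxysterol-binding protein gene, rose to 121, 114 and 126 CPM in the knock-out against 31.3, 31.5 and 33.0 in the wild type (1.91 ± 0.08, adjusted p = 1.9e-09). Mrgpre, beyond Osbpl5, rose to 5.07 ± 1.02 CPM in the knock-out against 0.931 ± 0.736 in the wild type (2.48 ± 0.42, adjusted p = 3.0e-04). Between the Tnfrsf genes and Phlda2, Nap1l4 had 203 ± 4.77 CPM in knock-out and 217 ± 5.30 in wild-type tumoroids and did not pass (adjusted p = 0.26). In the same gap Cars rose to 137 ± 3.74 CPM in the knock-out against 113 ± 4.06 in the wild type (0.27 ± 0.07, adjusted p = 0.0063). Dhcr7, a cholesterol synthesis enzyme at the far edge, fell by 0.73 on the log2 scale (adjusted p = 1.8e-05). From Cd81 to Dhcr7, 16 genes were tested, of which 9 rose and 4 fell, beside 30.4% of all tested genes higher and 27.0% lower. Among these, Trpm5 came through the filter by its wild-type counts, and Tnfrsf26 and Mrgpre by their knock-out counts, so the numbers are given as a description. This interval too was chosen after values were seen.

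**Figure D4:**
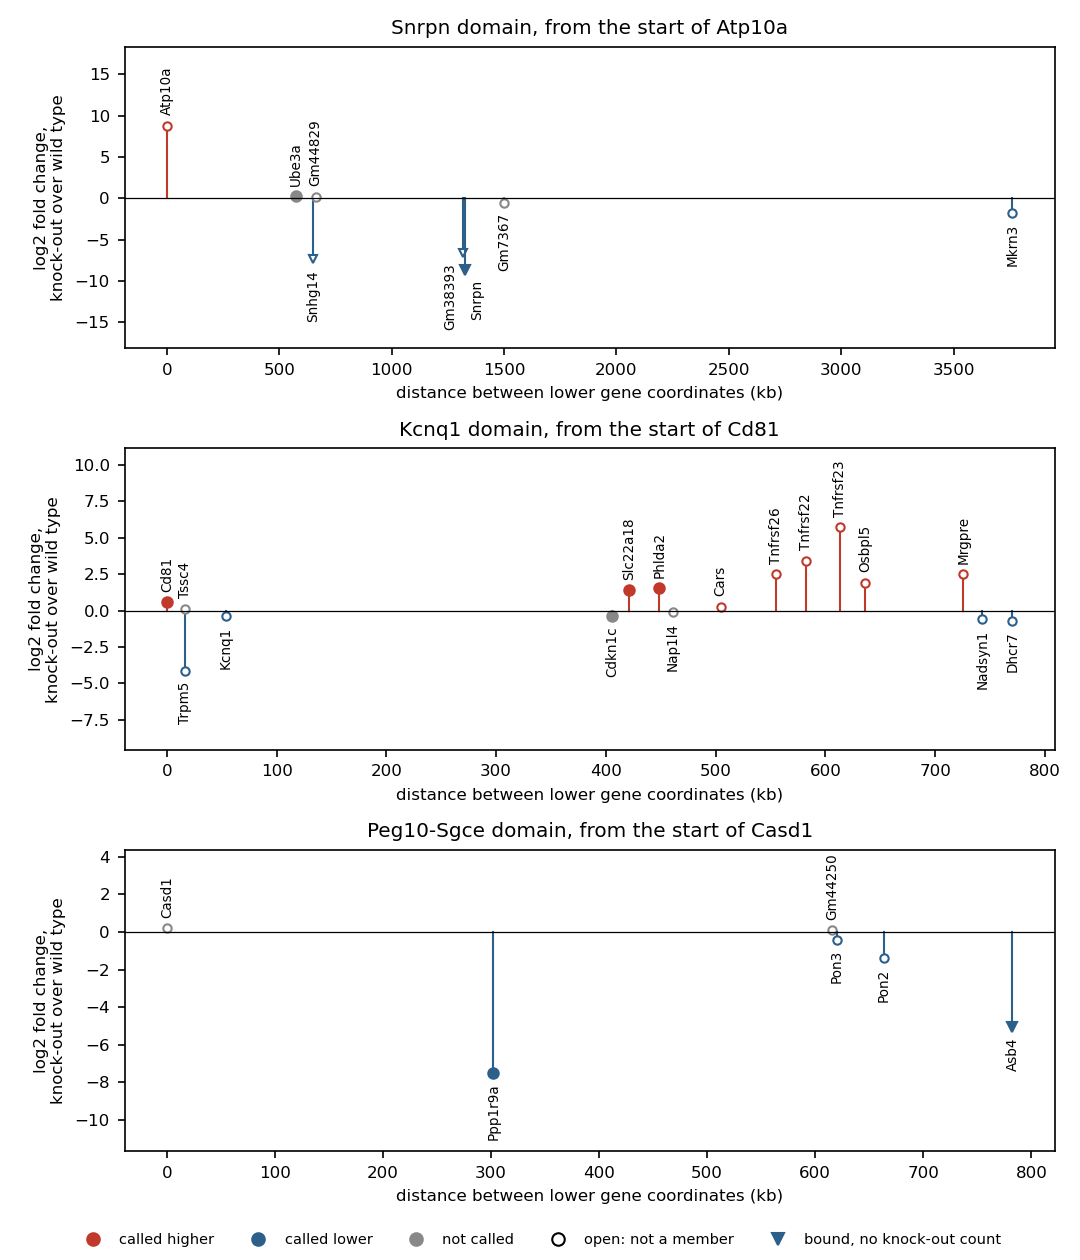
Log2 fold change, knock-out over wild type, of tested genes along the Snrpn, Kcnq1 and Peg10-Sgce domains (upper, middle and lower panel), against the distance in kb of each gene's lower coordinate from that of the first gene. Filled symbols are genes on the imprinted list, open symbols other genes, and triangles bounds for genes without a knock-out count. In the middle panel 9 genes rose, most of them in its right part, and the lower panel holds 4 falls and no rise.

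Of the fetal growth pair H19 and Igf2, hardly any RNA was counted. Igf2, the growth factor, had 2, 0 and 2 counts in knock-out and 0, 0 and 3 in wild-type tumoroids. H19 (ENSMUSG00000000031, chromosome 7, 142575529 to 142578143, minus strand), a long RNA without a protein product that is the host of Mir675, had 0, 0 and 0 CPM in the knock-out against 1.21, 0.388 and 0.372 CPM in the wild type. The genotypes did not overlap, with H19 at least 20.8-fold lower in the knock-out (adjusted p = 0.0036), and without wild-type replicate 1 the bound was 11.3-fold (adjusted p = 0.015). Igf2r (ENSMUSG00000023830, chromosome 17, 12682406 to 12769664, minus strand), the receptor that takes Igf2 to the lysosome, fell to 183, 139 and 179 CPM in the knock-out against 335, 322 and 316 CPM in the wild type. No knock-out library reached the wild-type range, and the log2 fold change was -0.96 ± 0.10 (adjusted p = 5.1e-06). Airn, the antisense RNA that silences Igf2r on the paternal copy, had 3.27 ± 0.468 CPM in knock-out and 4.19 ± 0.438 in wild-type tumoroids. Its genotypes did not overlap, but its log2 fold change of -0.35 ± 0.23 did not pass (adjusted p = 0.21).

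Grb10, an adaptor that damps insulin and IGF receptor signals, stayed below the filter with 4, 0 and 10 counts in knock-out and 0, 6 and 4 in wild-type tumoroids. Its neighbour Ddc (ENSMUSG00000020182, chromosome 11, 11814101 to 11898144, minus strand), the decarboxylase that makes serotonin and dopamine, fell to 19.7, 18.4 and 16.8 CPM in the knock-out against 38.9, 41.4 and 39.9 CPM in the wild type. The genotypes were far apart beside their spread, with a log2 fold change of -1.13 ± 0.11 (adjusted p = 1.8e-06). Ddc is also a gene of enteroendocrine cells, and the 5 markers of these cells, Chga, Chgb, Neurod1, Insm1 and Syp, summed to 0.0749 to 0.452 CPM in the knock-out against 5.98 to 19.6 CPM in the wild type. Of these 5, 3 fell, beside 27.0% of all tested genes lower, and 2 were below the filter, with Neurod1 at 0 in the knock-out. Chga, Chgb and Insm1, the 3 that fell, came through the filter by their wild-type counts, so these had to differ. The part of enteroendocrine cells in the Ddc result was not tested.

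Impact (ENSMUSG00000024423, chromosome 18, 12955852 to 12992950, plus strand), which restrains the stress kinase Gcn2, rose to 38.8, 35.2 and 43.6 CPM in the knock-out against 15.1, 14.6 and 15.6 CPM in the wild type. The genotypes did not overlap and the log2 fold change was 1.37 ± 0.12 (adjusted p = 8.5e-07). H13 and Trappc9 each hold a paternally expressed gene inside them, and in both pairs the host gene rose. H13, a signal peptide peptidase, rose to 186 ± 16.2 CPM in the knock-out against 119 ± 10.2 in the wild type (0.65 ± 0.09, adjusted p = 6.4e-05), while the retrogene Mcts2 within it had 9.33 ± 1.08 CPM in knock-out and 10.3 ± 0.0799 in wild-type tumoroids (adjusted p = 0.47). Trappc9, a trafficking protein that also binds kinases of the NF-kB pathway, rose to 53.0 ± 3.56 CPM in the knock-out against 39.2 ± 0.542 in the wild type (0.44 ± 0.09, adjusted p = 0.0013), while the long RNA Peg13 within it had 12.6 ± 2.36 CPM in knock-out and 10.2 ± 1.79 in wild-type tumoroids (adjusted p = 0.19).

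Commd1, which limits NF-kB activity and handles copper, fell to 25.1 ± 4.84 CPM in the knock-out against 35.9 ± 2.30 in the wild type (-0.52 ± 0.14, adjusted p = 0.0059). The splicing-factor retrogene Zrsr1 inside it went the other way in value, with 7.52 ± 1.09 CPM in knock-out and 5.48 ± 0.245 in wild-type tumoroids, and just missed the threshold (0.46 ± 0.19, adjusted p = 0.051). Their genotypes did not overlap, and the pair shares 412 exon bases on opposite strands. Gnas, the stimulatory G-protein subunit, had 432, 471 and 407 CPM in the knock-out against 517, 495 and 586 CPM in the wild type. Its fall was small, -0.29 ± 0.09 on the log2 scale (adjusted p = 0.012), and it no longer passed without knock-out replicate 3 (adjusted p = 0.062) or wild-type replicate 3 (adjusted p = 0.065). Nespas, the antisense RNA of the Gnas locus, had 4 counts in wild-type replicate 1 and none elsewhere. Gab1, an adaptor of growth factor receptors imprinted in the placenta, had 28.0 ± 2.30 CPM in knock-out and 33.5 ± 2.37 in wild-type tumoroids (-0.25 ± 0.11, adjusted p = 0.062).

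Ascl4 (ENSMUSG00000085111, chromosome 10, 85927681 to 85946206, plus strand), a basic helix-loop-helix factor, was near the limit of counting. It had 14, 27 and 23 counts in the knock-out against 0, 3 and 4 in the wild type, or 0.442, 1.01 and 0.743 CPM in the knock-out against 0, 0.145 and 0.149 CPM in the wild type. All knock-out values exceeded all wild-type values. The ratio of the counts was 7.92, with an exact 95% counting interval of 3.63 to 20.5 (fitted log2 fold change 2.93 ± 0.79, adjusted p = 0.0049). Without wild-type replicate 1 the fitted rise was 4.75-fold, against 7.60-fold with it (adjusted p = 0.036 without it).

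Several of the best-known clusters gave almost no RNA. In the Dlk1-Dio3 cluster on chromosome 12, the Notch-related ligand gene Dlk1 had 1 count, in knock-out replicate 3, and the long RNAs Meg3, Rian and Mirg, the retrotransposon-derived Rtl1 and the thyroid hormone deiodinase Dio3 had none. In the Peg3 cluster, the zinc-finger gene Peg3 had 11, 6 and 14 counts in knock-out and 7, 0 and 2 in wild-type tumoroids, below the filter, and Usp29 and Zim1 had none. Rasgrf1, an exchange factor for Ras, had 0, 7 and 5 counts in knock-out and 0, 0 and 2 in wild-type tumoroids. Nnat, Nap1l5, Sfmbt2 and Dcn, the last of these encoding the fibroblast proteoglycan decorin, had no count. A count of 0 over the pooled libraries of a genotype allows up to 0.0336 CPM in knock-out and 0.0388 CPM in wild-type tumoroids, for counting error only. Of the 27 paternally expressed genes 10 had no count at all and 10 could be tested, and of the 20 maternally expressed genes 5 had none and 14 could be tested.

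Set per kb of exon, the tested imprinted genes covered a wide range of levels. Cd81 was the most abundant, at 255 CPM per kb in knock-out and 171 in wild-type tumoroids, followed by Gnas at 39.0 in knock-out and 47.6 in wild-type tumoroids. In the knock-out Slc22a18 came next with 33.6 CPM per kb, against 12.8 in the wild type, and in the wild type Igf2r with 34.8, against 17.9 in the knock-out. Snrpn, at 0 in the knock-out, had 6.10 CPM per kb in the wild type, at the percentile 50.1 of all tested genes. Mest in the knock-out, at 2.29 CPM per kb and the percentile 30.8, was a gene of lower middle rank, against 0.0170 in the wild type. The 48 imprinted genes summed to 2027 CPM in knock-out and 1938 CPM in wild-type tumoroids, most of it from Cd81 and Gnas.

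Other genes known or reported to be imprinted in the mouse were looked up from a separate list, of which 42 were in the files and 23 could be tested. Of these 9 rose and 10 fell, which is 82.6%. The smallest adjusted p-values were those of Tnfrsf23, Atp10a and Osbpl5, given above, then Ascl2 and Pon2. Ascl2, a transcription factor of intestinal stem cells between the Igf2 and Kcnq1 clusters, fell to 5.78, 6.48 and 3.49 CPM in the knock-out against 75.4, 63.0 and 74.0 CPM in the wild type (log2 fold change -3.77 ± 0.17, adjusted p = 2.5e-09). Among the genes next to the clusters, the nearest tested protein-coding gene on either side, 8 of 41 rose and 19 fell, which is 65.9%. They lay from 5.1 kb (Fignl1) to 3488 kb (Khdrbs3) away from the cluster's outermost gene on the list. Ascl2, Cobl, Nap1l4, Casd1, Atp10a and Mkrn3 are in both sets, so the 2 shares are not independent. Some genes, such as Atp10a, came through the filter by the counts of a single genotype, so the shares are given as a description. These shares again stand beside 57.4% of all genes.

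The machinery that sets and keeps imprints was measured in the same libraries. Of 26 factors 22 were tested, and 2 rose and 9 fell. These 50.0% are below the 57.4% of all tested genes. Zfp57, the hexamer-binding protein named above, rose to 35.8, 36.1 and 35.9 CPM in the knock-out against 12.2, 10.6 and 11.5 CPM in the wild type (log2 fold change 1.65 ± 0.11, adjusted p = 1.1e-07). The maintenance methyltransferase Dnmt1 fell to 259 ± 8.98 CPM in the knock-out against 378 ± 6.51 in the wild type (-0.55 ± 0.07, adjusted p = 2.3e-05). Uhrf1, which brings Dnmt1 to newly copied DNA, fell to 120.4 ± 13.4 CPM in the knock-out against 211 ± 6.73 in the wild type (-0.81 ± 0.09, adjusted p = 7.0e-06). The Polycomb methyltransferase Ezh2 and the chromatin remodeller Hells fell by 0.55 and 0.52 on the log2 scale (adjusted p = 6.6e-05 and 1.3e-04). The other rise was that of the methyltransferase gene Dnmt3a, at 70.3 ± 13.05 CPM in knock-out and 42.4 ± 7.84 in wild-type tumoroids (adjusted p = 0.0014). Ctcf, the insulator protein of the H19-Igf2 control region, had 148 ± 8.65 CPM in knock-out and 156 ± 6.49 in wild-type tumoroids (adjusted p = 0.39).

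Around Igf2 itself, 7 of 8 receptor, substrate and RNA-binding genes were tested, of which 3 rose and 1 fell, or 57.1% against 57.4% of all tested genes. Igf2bp3 came through the filter by its wild-type counts and Igf2bp1 by its knock-out counts, so the share is given as a description. Irs1, a substrate of the insulin and IGF receptors, rose to 33.1, 27.6 and 33.7 CPM in the knock-out against 2.28, 3.05 and 1.93 CPM in the wild type (3.73 ± 0.18, adjusted p = 5.5e-09), and Irs2 rose to 87.5 ± 22.6 CPM in the knock-out against 33.0 ± 1.23 in the wild type (1.41 ± 0.16, adjusted p = 1.4e-05). Of the fetal proteins that bind Igf2 mRNA, Igf2bp1 rose to 3.33 ± 0.720 CPM in the knock-out against 0.360 ± 0.270 in the wild type (adjusted p = 6.9e-05). Igf2bp3 had no count in the knock-out against 11.0, 13.7 and 14.0 CPM in the wild type, at least 379.7-fold lower (adjusted p = 1.4e-07). The receptor Igf1r had 6.34 ± 1.34 CPM in knock-out and 8.48 ± 2.20 in wild-type tumoroids and did not pass (adjusted p = 0.16).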

How the data were processed

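Polyadenylated RNA of tumoroids was sequenced as 6 stranded libraries, 3 per genotype, per the labels' protocols. Reads were aligned with STAR to GRCm38, per the submitters' processing notes. Which program counted them, whether by strand, and what became of multi-mapping reads are points not given in the sources used here. All deposited values are raw counts, whole numbers for each Ensembl gene. Of 49585 genes 26250 were at 0 in all libraries. Symbols, coordinates and exon lengths were taken from GENCODE M21 of GRCm38, which left 259 genes unnamed, and overlaps from its exons.

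Counts were tested in edgeR 4.0.16 (R 4.3.3) by its quasi-likelihood method (current form, not the legacy fit), with TMM scaling, a single genotype term and filterByExpr (minimum count 10, minimum total 15). Benjamini-Hochberg adjustment ran over 13759 genes, with a threshold of 0.05. Standard errors were computed as the absolute log2 fold change over the square root of F. CPM values are means ± SD over 3 libraries. For genes without counts in a genotype, bounds assume 3 counts over its pooled libraries, and for genes with few counts the ratio of counts was given with an exact 95% binomial interval. Bounds and intervals cover counting error only.

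The members and lists were chosen with earlier results of these data known. All tested members are named, with values per library for those past the threshold at 2-fold or more and for the best-known genes, and of each other list up to 5 genes with the smallest p, and examples of the genes next to the clusters. The Snrpn, Kcnq1 and Peg10-Sgce intervals and Gm38393, Snhg14, Tnfrsf22, Tnfrsf26, Cars, Mrgpre, Pon3, Dhcr7, Kcnq1, Dnmt3a and Ctcf were singled out after values were seen.

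Alternatives were scaling by DESeq2 size factors (DESeq2 1.42.0), upper quartile or library size alone, no filter, a filter of 1 CPM in 3 libraries, the DESeq2 Wald test, limma voom (limma 3.58.1), the replicate number as a block, a threshold of 0.01, leaving out each library, and, chosen after seeing the data, the legacy edgeR fit.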

Additional observations from a re-analysis of the deposited data

How the results depend on the processing

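Of 397 values of tested imprinted genes under the alternatives, 388 kept their direction and side of the threshold, 6 gained the call, 3 lost it and none reversed. The number called was 15 to 20 over all alternatives, against 17, and 16 to 20 when single libraries were left out. Gnas lost its call at an adjusted p of 0.01 and without knock-out or wild-type replicate 3, and Gab1 (adjusted p = 0.025) gained one with upper-quartile scaling. With 1 CPM required in 3 libraries, H19, Asb4 and Ascl4 could not be tested. Without a filter 17 of 33 imprinted genes were called, against 36.6% of all genes. Same-numbered libraries did not deviate together (correlations 0.039, -0.041 and -0.08). This gives no sign that the numbers pair the samples, but with 3 libraries per genotype weak pairing could go unseen. With the replicate number as a block 17 imprinted genes were called, the same ones, against 54.0% of all genes. All genes called ranged from 6397 to 8902, and from 7077 to 8902 when single libraries were left out. Chuk stayed between -1.91 and -1.69. With the promoter window cut to 250 bases, 7 imprinted genes held the hexamer in place of 13, since fewer bases were searched. Depth limits H19, Asb4, Ascl4 and the 8 genes below the filter, which rest on few counts.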
